A study of Mus musculus with 12 samples.

Results

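The 10 genes described here were the D-type cyclins Ccnd1, Ccnd2 and Ccnd3, the E-type cyclins Ccne1 and Ccne2, the mitotic cyclins Ccna2, Ccnb1 and Ccnb2, and the Cdk inhibitors Cdkn2c and Cdkn1b. They were listed by name as members of 1 pathway, by a rule that uses no measured value. The list itself was chosen with earlier results of these data known. Whole-liver RNA of mice aged 2 months was hybridised to 12 Illumina MouseWG-6 v2.0 bead arrays, with 4 livers in each of 3 groups. Alb-Cre mice carried a Cre transgene under the albumin promoter, which is active in hepatocytes, and were homozygous for a floxed Atg7, a gene needed to form autophagosomes. Olig1-Cre mice carried the same floxed gene with Cre at Olig1, a gene of the oligodendrocyte lineage, and the labels call both Cre groups conditional Atg7 knockouts. Controls were Cre-negative mice with the same floxed Atg7, and of the 4 the breeding line was Alb-Cre for 2 and Olig1-Cre for 2. All 4 Alb-Cre livers were male, whereas the Olig1-Cre and control groups each held 1 male and 3 females, so sex and the Alb-Cre genotype cannot be told apart within that group. Each group had 2 arrays on each of 2 chips, and replicates 1 and 2 were on chip 1. Replicate numbers only name the livers. In whole liver, fewer cells of a type and less RNA per cell cannot be told apart.

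Progress through the cell cycle is driven by cyclin-dependent kinases, which are active only when bound to a cyclin. D-type cyclins respond to growth signals in G1 and, with Cdk4 and Cdk6, phosphorylate the retinoblastoma protein, which frees E2F factors to switch on genes for DNA replication. E-type cyclins act with Cdk2 at the start of S phase, cyclin A2 through S and G2, and B-type cyclins with Cdk1 at mitosis. Inhibitors of the Ink4 family, such as p18 encoded by Cdkn2c, block Cdk4 and Cdk6, and those of the Cip/Kip family, such as p27 encoded by Cdkn1b, bind cyclin-Cdk complexes more broadly. Adult hepatocytes are mostly quiescent, and Ccnd1 is known as a gene they induce when they re-enter the cycle after loss of liver mass.

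The 1 Atg7 probe did not check the deletion. Its log2 intensity was 4.56, 4.33, 4.62 and 4.41 in Alb-Cre livers, 4.49, 4.29, 4.37 and 4.41 in Olig1-Cre livers, and 4.23, 5.70, 4.24 and 4.29 in control livers, and it was above background only in Alb-Cre replicate 3 and control replicate 2. Over all genes, 2088 were called higher and 1644 lower in Alb-Cre against control livers at an adjusted p under 0.05 (limma with Benjamini-Hochberg adjustment). Scaling each array to 1 median in place of quantile normalization turned that split into 4854 higher and 163 lower and moved the median of all genes by 0.59 on the log2 scale. In Olig1-Cre against control livers the split was 1366 higher and 907 lower, and 1734 higher and 38 lower under that scaling, which moved the median by 0.40. The share of probes above background was 39.8 to 43.9% in Alb-Cre livers, 39.1 to 41.9% in Olig1-Cre livers and 34.2 to 37.8% in control livers, lowest in control replicate 1. The part of this difference in the results below was not tested.

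Of the 10 genes, 9 had a probe, 20 probes in all out of 45281 on the array. Ccnb1 had none in the annotation used, so no value is given for it. A probe counted as detected on an array where its detection p against the negative controls was under 0.05, and 15 of the 20 probes, for 7 genes, were detected on at least 4 of the 12 arrays and entered the tests with 19528 probes and 10711 genes in all. The probes of Ccna2 (ILMN_2672442) and Ccnb2 (ILMN_2611948) and Cdkn1b probes ILMN_1228598 and ILMN_2923960 were not above background on any array. For Ccne2, and for Cdkn2c probe ILMN_2420939, the detections came only from the Cre groups: Ccne2 was detected in 4 Alb-Cre, 2 Olig1-Cre and 0 control livers, and the Cdkn2c probe in 4 Alb-Cre, 3 Olig1-Cre and 0 control livers. Those 2 probes passed the filter only through the groups in which they were brighter, so the genes that passed are not a fair sample of all members.

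**Figure D1:**
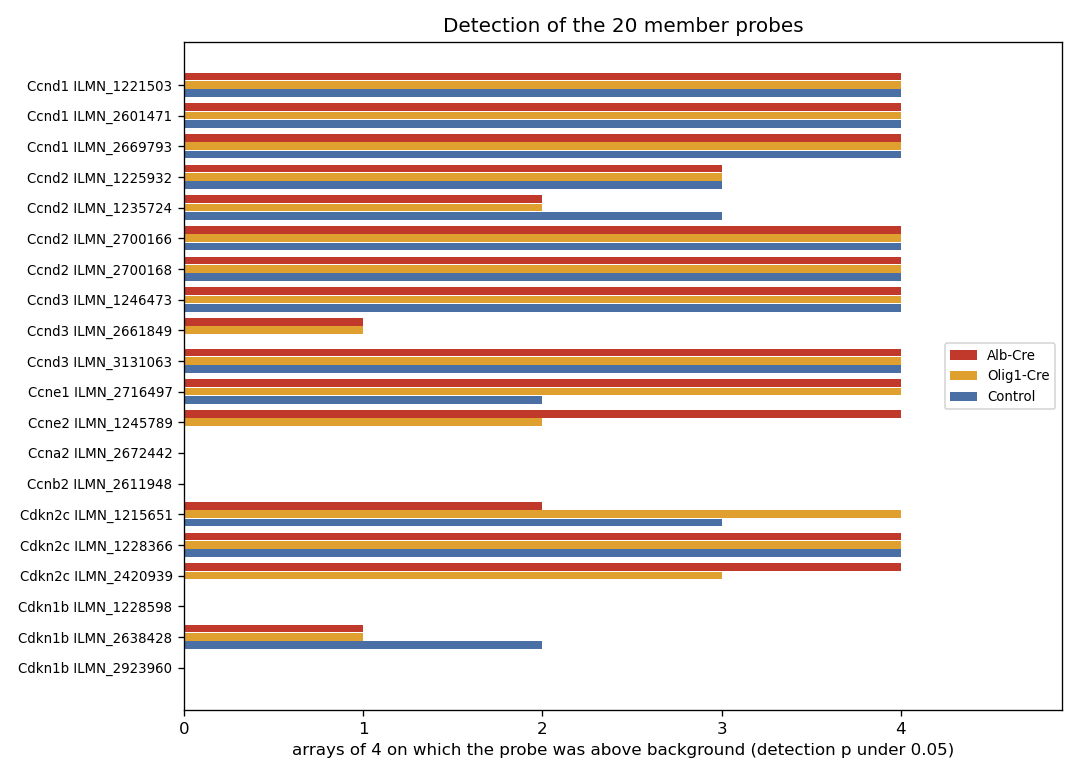
Number of arrays, of 4 per group, on which each of the 20 member probes was above background, with Alb-Cre bars above Olig1-Cre and control bars. Ccne2 and Cdkn2c probe ILMN_2420939 were detected in 0 control livers, and 4 probes have no bar because no array detected them.

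Ccnd1 (chr7:144929931-144939831 in GRCm38.p6), which encodes cyclin D1, was the measured member with the largest difference between Alb-Cre and control livers. Its gene value, the median of 3 probes, was 11.05, 10.59, 11.53 and 10.95 log2 units in Alb-Cre livers, 10.72, 9.87, 10.57 and 10.91 in Olig1-Cre livers, and 8.49, 9.28, 9.49 and 11.18 in control livers. The groups overlapped because control replicate 4 lay inside the Alb-Cre range, and only 1 Alb-Cre liver exceeded all 4 controls. The raw signal of probe ILMN_1221503 spanned 2023 to 4438 in Alb-Cre livers, 975 to 2682 in Olig1-Cre livers and 212 to 2577 in control livers. Ccnd1 was 1.42 ± 0.47 log2 units higher in Alb-Cre than in control livers (SE, 95% interval 0.38 to 2.45, adjusted p = 0.0384 by limma), with group means of 11.03 ± 0.39 and 9.61 ± 1.13 (SD, n = 4 each). Without control replicate 4 the difference was 1.94 (adjusted p = 0.000950), and no control then overlapped the Alb-Cre range. The call was lost on leaving out any of 6 other livers, Alb-Cre replicates 1, 3 and 4 and control replicates 1, 2 and 3 (adjusted p up to 0.0932), and within chip 2 (0.90, adjusted p = 0.291), against 1.93 within chip 1 (adjusted p = 0.0195).

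The 3 Ccnd1 probes moved together. In Alb-Cre against control livers their differences were 1.51 for ILMN_1221503 (adjusted p over all probes 0.0273), 1.42 for ILMN_2601471 (0.0408) and 1.65 for ILMN_2669793 (0.00778, by limma as the others). Probe ILMN_2669793 read 9.05, 8.57, 10.03 and 9.30 in Alb-Cre livers, 8.90, 7.53, 8.63 and 8.90 in Olig1-Cre livers, and 6.91, 7.24, 7.61 and 8.60 in control livers, so 3 of 4 Alb-Cre livers were above every control. This probe kept its call on leaving out each of the 8 livers in turn (adjusted p 0.00175 to 0.0260) and within each chip (1.74 in chip 1 and 1.56 in chip 2), while the other 2 each lost theirs in 6 of 8, kept without Alb-Cre replicate 2 or control replicate 4. Olig1-Cre livers lay between, with a Ccnd1 difference of 0.90 ± 0.48 from control livers (95% interval -0.17 to 1.97, adjusted p = 0.204), which became 1.43 (adjusted p = 0.0151) without control replicate 4. Alb-Cre livers were 0.51 ± 0.25 above Olig1-Cre livers (95% interval -0.05 to 1.08, adjusted p = 0.386).

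Within the Olig1-Cre and control groups the lowest Ccnd1 value was that of the 1 male. Males averaged 1.18 log2 units below females in a fit over those 8 livers with group as a covariate (9.18 in males and 10.36 in females, adjusted p = 0.245 by limma), a fit that rests on 2 males, both on chip 1. The Alb-Cre mean lay 2.54 above the 1 male control, which was also the lowest control and the array with the smallest share of detected probes, and with 1 liver in that arm no test is given. The controls of the 2 lines overlapped, with 2 livers of each. The difference of Alb-Cre-line from Olig1-Cre-line controls was -1.24 ± 0.54 (adjusted p = 0.602 by limma). The 1 male control was of the Alb-Cre line, so line and sex are mixed here. The Alb-Cre-line controls read 8.49 and 9.49 and the Olig1-Cre-line controls 9.28 and 11.18, and against the controls of its own line the Ccnd1 difference was 2.04 in Alb-Cre livers and 0.28 in Olig1-Cre livers. The difference of these differences was 1.75 ± 0.66 (95% interval 0.32 to 3.19, adjusted p = 0.672), and that fit called 0 of 10711 genes, with 759 at an unadjusted p under 0.05.

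Ccnd2 (chr6:127125162-127152188), which encodes cyclin D2 and lies 12.3 Mb from Atg7 on the same chromosome, varied widely within the Alb-Cre group. Its gene value over 4 probes was 5.25, 4.99, 6.08 and 5.95 in Alb-Cre livers, 5.63, 5.16, 5.93 and 5.87 in Olig1-Cre livers, and 4.79, 5.37, 5.27 and 5.57 in control livers. Both Alb-Cre livers on chip 1 were below both on chip 2. The Alb-Cre difference from control livers was 0.32 ± 0.26 (95% interval -0.26 to 0.89, adjusted p = 0.377), that is 0.04 within chip 1 and 0.60 within chip 2, neither past the threshold. In Olig1-Cre against control livers it was 0.40 ± 0.21 (adjusted p = 0.198). With sex as a covariate that difference was the same and passed the threshold (adjusted p = 0.0383), as it did without Olig1-Cre replicate 2 (0.56, adjusted p = 0.0491), the male.

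The Ccnd2 probes did not all run the same way. Probe ILMN_2700166, designed on the RefSeq transcript, read 6.12, 5.92, 7.65 and 7.51 in Alb-Cre livers, 6.80, 6.54, 7.13 and 7.49 in Olig1-Cre livers, and 6.03, 6.25, 6.05 and 6.72 in control livers. Its Olig1-Cre difference from control livers was 0.73 ± 0.23 (adjusted p = 0.0490 over all probes), a call lost in 6 of 8 fits that left out 1 liver (up to 0.128), kept without Olig1-Cre replicate 2 or control replicate 4, and its Alb-Cre difference was 0.54 ± 0.38 (adjusted p = 0.319). The other transcript probe, ILMN_2700168, gave 0.70 (adjusted p = 0.0570) and 0.61 (adjusted p = 0.209) in the same comparisons. Probe ILMN_1235724, designed on a cDNA record, differed by -0.34 between Alb-Cre and control livers (adjusted p = 0.105) and was detected on only 7 arrays. ILMN_1225932, also on a cDNA record, differed by 0.09 (adjusted p = 0.789) and was detected on 9 arrays. Its Olig1-Cre difference from control livers was 0.13 (adjusted p = 0.740). The gene value, as the median of 4 probes, takes in a dim cDNA probe beside a transcript probe. In the fit of sex over Olig1-Cre and control livers, the Ccnd2 difference of males from females was -0.63 (4.97 in males and 5.61 in females, adjusted p = 0.109 by limma), where 46 genes passed.

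Ccnd3 (chr17:47505051-47599689) encodes cyclin D3. Its gene value, from 2 probes, was 7.03, 6.86, 7.38 and 6.97 in Alb-Cre livers, 7.09, 6.96, 7.35 and 7.08 in Olig1-Cre livers, and 6.95, 6.91, 6.74 and 6.86 in control livers. Olig1-Cre livers did not overlap control livers, and 3 of 4 Alb-Cre livers were above every control. The differences were 0.20 ± 0.14 in Alb-Cre livers (adjusted p = 0.298) and 0.26 ± 0.12 in Olig1-Cre livers (adjusted p = 0.152). The 2 probes differed in what they showed. Probe ILMN_3131063 was 9.06, 8.80, 9.39 and 8.94 in Alb-Cre livers, 9.08, 8.90, 9.27 and 8.93 in Olig1-Cre livers, and 8.67, 8.51, 8.70 and 8.72 in control livers. Neither Cre group overlapped the controls on it, yet its differences, 0.40 ± 0.15 for Alb-Cre (adjusted p = 0.0685) and 0.40 ± 0.13 for Olig1-Cre (adjusted p = 0.0572), missed the threshold. Probe ILMN_1246473 averaged 5.08 ± 0.21 in Alb-Cre livers and 5.08 ± 0.24 in control livers (SD, n = 4 each).

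The E-type cyclins were close to background. Ccne1 (chr7:38097984-38107490), cyclin E1, had 1 probe, detected in 4 Alb-Cre, 4 Olig1-Cre and 2 control livers. It read 5.16, 4.91, 5.25 and 5.11 in Alb-Cre livers, 5.36, 5.01, 5.38 and 4.75 in Olig1-Cre livers, and 4.70, 4.51, 4.74 and 5.40 in control livers, and control replicate 4 was the highest of the 12. The Alb-Cre difference was 0.27 ± 0.19 (adjusted p = 0.307), and without control replicate 4 it was 0.45 (adjusted p = 0.0341). The Olig1-Cre difference was 0.29 ± 0.21 (adjusted p = 0.358).

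Ccne2 (chr4:11190433-11204779), cyclin E2, read higher in Alb-Cre than in control livers. Its 1 probe read 4.70, 4.73, 4.78 and 4.82 in Alb-Cre livers, 4.33, 4.66, 4.61 and 4.36 in Olig1-Cre livers, and 4.29, 4.18, 4.42 and 4.40 in control livers. Alb-Cre livers overlapped neither of the other groups. The fitted difference from control livers was 0.43 ± 0.11 (adjusted p = 0.0134 by limma), but no control was above background, and the lowest log2 signal that counted as detected on the control arrays was 4.71 to 4.92, so no lower bound on the fold can be given. The probe entered the tests only because Cre livers detected it, so its call is a description of a gene selected by the same difference. All 8 gene-level fits that left out 1 liver kept the call, but over all probes it was lost without control replicate 2 (0.39, adjusted p = 0.0592), and under cubic spline normalization the difference was 0.15 (adjusted p = 0.0492 by gene and 0.0603 by probe). The call was lost within chip 1 (0.48, adjusted p = 0.109), within chip 2 (0.39, 0.192) and against the 2 controls of the same line (0.40, 0.0793). In a fit that included sex, which rests on the 1 male control, the difference was 0.46. Alb-Cre livers were 0.27 ± 0.12 above Olig1-Cre livers (adjusted p = 0.340 by limma).

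Neither Ccna2 (chr3:36564865-36573038) nor Ccnb2 (chr9:70407689-70421554) was above background in any liver. Signals of the Ccna2 probe lay between 75.5 and 94.5 and those of the Ccnb2 probe between 76.7 and 88.6, and the smallest detection p among the 12 arrays was 0.186 for Ccna2 and 0.574 for Ccnb2. These values set no level for cyclin A2 or cyclin B2 mRNA in any group. Their partner kinase gene Cdk1 was measured and is given with the cell cycle lists. Promoters of genes expressed late in the cycle often hold a cell cycle homology region, TTTGAA, and CCAAT boxes. In the 250 bases before the start of each RefSeq promoter (GRCm38.p6), searched on both strands, TTTGAA was present in 15.99% of 32851 promoters, CCAAT in 33.8% and both in 5.55%. RefSeq promoters were held for 6 of the 10 members (Ccnd3, Ccne1, Ccnb1, Ccnb2, Cdkn2c and Cdkn1b), 8 promoters in all. The Ccnb2 promoter is shown because it alone among the 8 held both, with 1 TTTGAA and 3 CCAAT matches in capitals (minus strand, chr9:70421555-70421804).
Ccnb2: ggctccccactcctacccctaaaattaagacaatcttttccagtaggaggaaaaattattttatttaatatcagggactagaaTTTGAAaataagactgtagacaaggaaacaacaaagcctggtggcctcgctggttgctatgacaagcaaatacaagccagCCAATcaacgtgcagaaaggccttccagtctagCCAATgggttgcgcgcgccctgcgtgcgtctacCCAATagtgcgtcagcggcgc

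CCAAT was also found in Ccnb1 (2 matches), Cdkn1b (2) and 1 of the 2 Ccnd3 promoters (1). The E2F words TTTCCCGC, TTTGGCGC, TTTCGCGC and TTTGCCGC, present in 1.86% of all promoters, were in none of the 8. A match or its absence is a description of these letters in this window only.

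Cdkn2c (chr4:109660876-109666756), the gene of the Ink4 inhibitor p18, had the smallest adjusted p among the members, and its 3 probes differed in what they showed. Probe ILMN_2420939, designed on a cDNA record, read 5.57, 5.46, 5.49 and 5.33 in Alb-Cre livers, 4.96, 4.62, 5.04 and 4.93 in Olig1-Cre livers, and 4.53, 4.33, 4.32 and 4.55 in control livers. The 3 groups did not overlap on it, and it too entered the tests only through the Cre groups. Its calls and the fits below are therefore descriptions of a probe selected by the same difference. Against control livers, none of which was above background, it was at least 1.61-fold higher in Alb-Cre and at least 1.08-fold higher in Olig1-Cre livers. The fitted differences behind the calls were 1.03 ± 0.13 (adjusted p = 0.000200 over all probes by limma) and 0.46 ± 0.14 (adjusted p = 0.0413) in the same order. Each bound is the mean of the Cre group over the control mean of, per array, the higher of the lowest signal counted as detected and the reading of the probe itself. The Alb-Cre call held on leaving out each of the 8 livers (adjusted p 0.000425 to 0.00127) and within each chip (0.0206 in chip 1 and 0.0278 in chip 2), with a difference of 0.32 under cubic spline normalization against 1.03 in the fit used here, while the Olig1-Cre call was lost in 7 of 8 such fits (up to 0.124), all but that without Olig1-Cre replicate 2, and under cubic spline normalization (0.14, adjusted p = 0.0964). Between the Cre groups the probe differed by 0.57 ± 0.13 (adjusted p = 0.128 by limma).

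Cdkn2c probe ILMN_1228366 read 7.61, 7.45, 7.33 and 7.05 in Alb-Cre livers, 7.65, 6.93, 7.38 and 7.03 in Olig1-Cre livers, and 6.36, 6.82, 6.63 and 7.00 in control livers. Alb-Cre livers were 0.66 ± 0.18 above control livers with no overlap (adjusted p = 0.0164), a call lost without Alb-Cre replicate 1 (0.58, adjusted p = 0.0515) and within chip 2 (0.38, adjusted p = 0.312). The difference of Olig1-Cre from control livers was 0.55 ± 0.19 (adjusted p = 0.0745). The third probe, ILMN_1215651, did not differ in mean between Alb-Cre and control livers beyond its spread (4.76 ± 0.36 and 4.78 ± 0.32, difference -0.03, 95% interval -0.50 to 0.44). It was designed on the same RefSeq transcript as ILMN_1228366 but was dim. Its signals were 79.2 to 123.4, and it was detected in 2 Alb-Cre, 4 Olig1-Cre and 3 control livers. Because the gene value is the median of the 3, it came from ILMN_2420939 in 4 of 4 Alb-Cre livers and from ILMN_1215651 in 3 of 4 control livers, so the gene-level difference of 0.63 ± 0.14 (adjusted p = 0.00646) compares mostly different probes and the single probes are the safer reading. Like Ccnd3, whose sequences are not shown, Cdkn2c has 2 RefSeq starts, and their upstream sequences are given here. Whether the starts of Cdkn2c bear on the differences between its probes was not tested. Both are on the minus strand, at chr4:109666757-109667006 for start 1 and chr4:109665373-109665622 for start 2, and neither held an E2F word, TTTGAA or CCAAT.
Cdkn2c start 1: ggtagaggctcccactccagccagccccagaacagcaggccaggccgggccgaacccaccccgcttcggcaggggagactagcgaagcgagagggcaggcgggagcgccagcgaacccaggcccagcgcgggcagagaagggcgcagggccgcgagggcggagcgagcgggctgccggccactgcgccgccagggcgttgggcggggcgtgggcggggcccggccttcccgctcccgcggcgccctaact
Cdkn2c start 2: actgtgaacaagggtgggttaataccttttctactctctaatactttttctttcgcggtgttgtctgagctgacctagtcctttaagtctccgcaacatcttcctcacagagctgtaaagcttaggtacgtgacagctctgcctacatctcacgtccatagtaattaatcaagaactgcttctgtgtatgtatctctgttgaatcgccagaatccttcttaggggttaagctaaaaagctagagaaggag

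**Figure D2:**
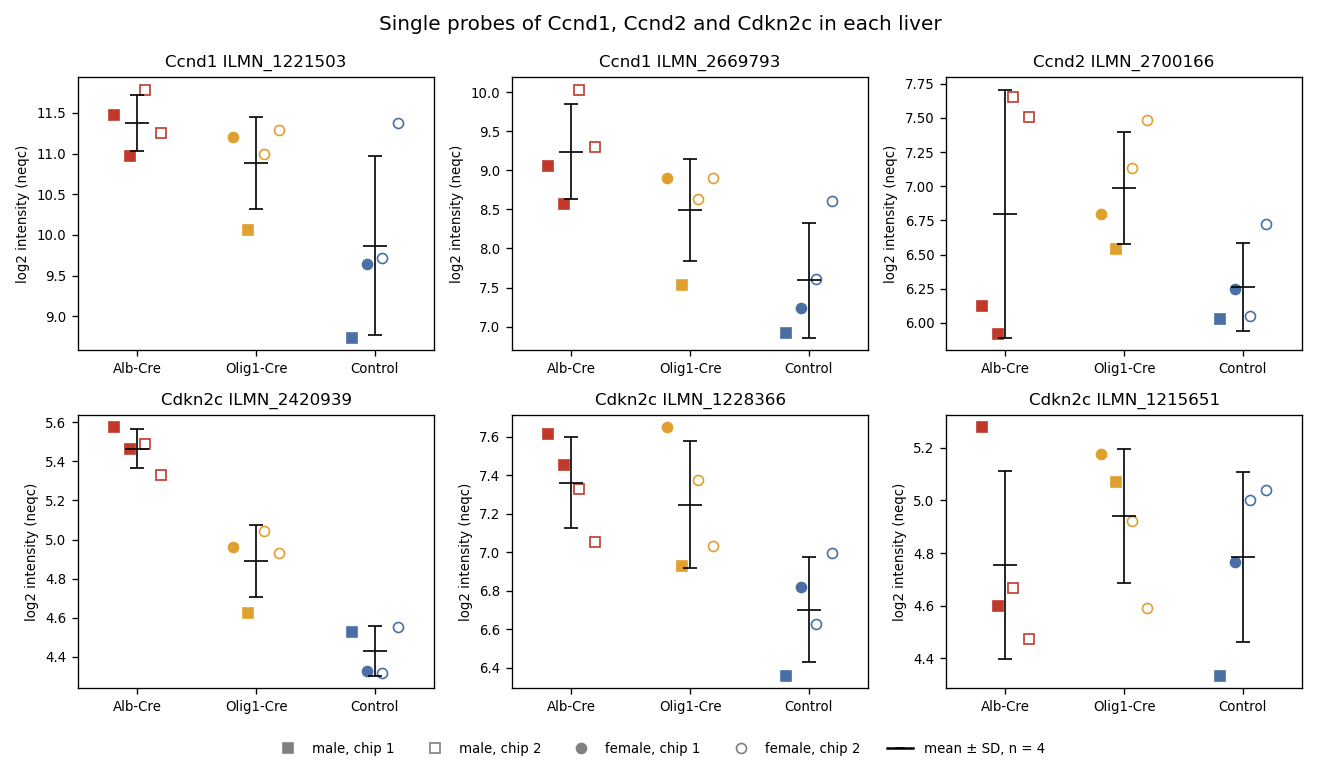
Log2 intensity of 6 single probes in the 12 livers (squares male, circles female, filled chip 1, open chip 2, black lines mean ± SD, n = 4 per group). On Cdkn2c probe ILMN_2420939 the 4 Alb-Cre livers, 5.33 to 5.57, lie above all others, and on ILMN_1215651 the groups overlap.

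Cdkn1b (chr6:134920401-134925525), the gene of p27, lies 20.1 Mb from Atg7. Of its 3 probes only ILMN_2638428 was kept, detected in 1 Alb-Cre, 1 Olig1-Cre and 2 control livers. It read 4.28, 4.52, 4.50 and 4.23 in Alb-Cre livers, 4.40, 4.33, 4.60 and 4.51 in Olig1-Cre livers, and 4.81, 5.10, 4.74 and 4.30 in control livers. It was the member with a negative difference in both Cre groups, -0.35 ± 0.17 in Alb-Cre livers (adjusted p = 0.136) and -0.28 ± 0.17 in Olig1-Cre livers (adjusted p = 0.260). Without control replicate 4, which overlapped both, the Alb-Cre difference was -0.50 (adjusted p = 0.0309). Most of these readings were not above background.

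**Figure D3:**
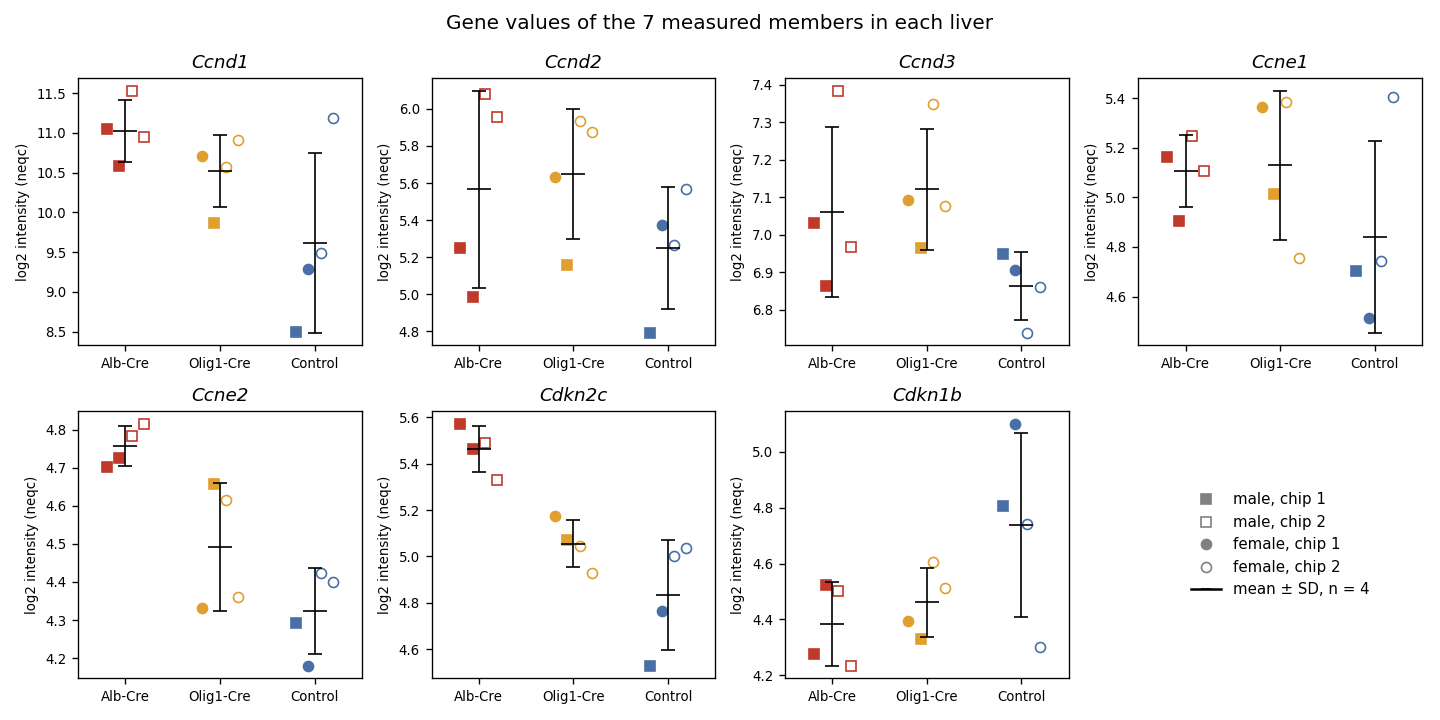
Log2 gene value (median of the kept probes) of the 7 measured members in the 12 livers, each panel with its own axis (squares male, circles female, filled chip 1, open chip 2, black lines mean ± SD, n = 4 per group). Ccne2 and Cdkn2c do not overlap between Alb-Cre and control livers, and control replicate 4 is the high control for Ccnd1, 11.18, and Ccne1, 5.40. For Ccne2 and Cdkn2c the Alb-Cre values came from probes that no control detected.

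Across the 7 measured members, 3 were called higher and 0 lower in Alb-Cre against control livers, where 19.5% of all 10711 genes were called higher and 15.3% lower. One of the 3, Ccne2, passed the filter only through the Cre groups. The Cdkn2c value came from ILMN_2420939, a probe that no control detected, in 4 of 4 Alb-Cre livers and from ILMN_1215651 in 3 of 4 control livers. The count is therefore a description and supports nothing about the members. Ccne2 and Cdkn2c were the 2 members whose groups did not overlap, against 35% of all genes. By probe, 6 of 15 were called higher and 0 lower, where 16.6% of all 19528 probes were called higher, and 4 were higher with no overlap, against 17.1%. In each of these probe counts 2 were Ccne2 and Cdkn2c ILMN_2420939, which no control detected. In Olig1-Cre against control livers 0 of 7 members were called, where 12.8% of genes were called higher and 8.47% lower, and 0 by limma had an unadjusted p under 0.05. The methods' t-test also called 0 there, where it called 768 of all genes higher and 386 lower. Ccnd3 was the 1 member that did not overlap, against 23.9% of genes. By probe 2 of 15 were called higher, against 10.4%, and 2 were higher with no overlap, against 12.4%. Both of these probe counts include Cdkn2c ILMN_2420939, which no control detected. Alb-Cre and Olig1-Cre livers were set against the same 4 controls, so the 2 comparisons are not independent. Directly, Alb-Cre against Olig1-Cre livers gave 0 of 7 calls, by limma and by the methods' t-test, where limma called 0.0747% of genes higher and 0.084% lower. Ccne2 and Cdkn2c, 2 of the 7, did not overlap, against 8.63% of genes. Ccne2 passed the filter only through the Cre groups. The Cdkn2c value came from ILMN_2420939 in 4 of 4 Alb-Cre livers and from ILMN_1215651 in 2 of 4 Olig1-Cre livers. That count too is a description. By probe 0 of 15 were called, against 0.0256% called higher, and 2 were higher with no overlap, against 4.2%. These were Ccne2 and Cdkn2c ILMN_2420939, which passed the filter only through the Cre groups.

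**Figure D4:**
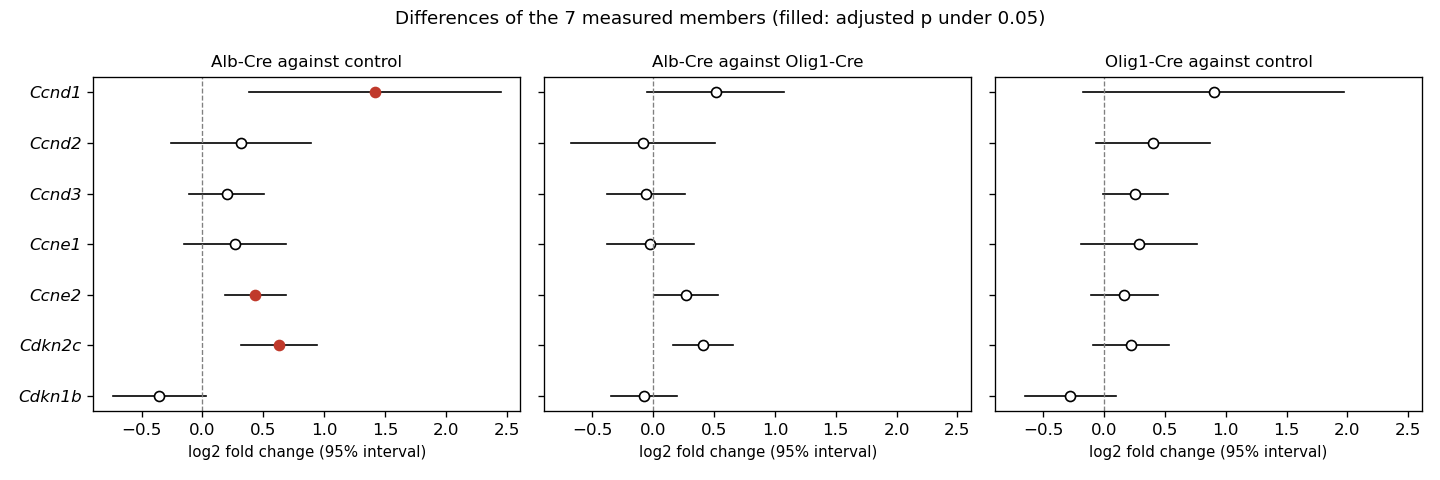
Log2 fold change of the 7 measured members with its 95% interval in the 3 comparisons, filled where the adjusted p was under 0.05. Ccnd1, Ccne2 and Cdkn2c are filled in Alb-Cre against control, and none is filled in the other comparisons. For Ccne2 and Cdkn2c the Alb-Cre values came from probes that no control detected.

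Genes that act with these members were taken from 8 lists, 48 of whose genes were tested. In Alb-Cre against control livers 16 were called higher and 2 lower, in Olig1-Cre against control livers 15 higher and 1 lower, and in Alb-Cre against Olig1-Cre livers 0 in either direction. Over all genes the shares called were 19.5% higher and 15.3% lower, 12.8% and 8.47%, and 0.0747% and 0.084% in the same order. With arrays scaled to 1 median the list counts were 33 higher and 0 lower in Alb-Cre livers, and 18 higher and 0 lower in Olig1-Cre livers. Under that scaling 4854 of all 10711 genes were called higher and 163 lower in Alb-Cre livers, and 1734 and 38 in Olig1-Cre livers. Aurka, Cdkn2b, Top2a and Mybl2 were detected in no control and passed the filter only through the Cre groups, so these counts too are descriptions. Medians over the 48 were 0.21, 0.12 and 0.10 log2 units in that order. With sex as a covariate, Alb-Cre livers are in effect set against the 1 male Olig1-Cre liver, so no count from that fit is given.

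Among 5 Cdk partners only Cdk1, the mitotic kinase of the A- and B-type cyclins, was called. It read 7.87, 7.50, 8.11 and 7.04 in Alb-Cre livers, 6.82, 5.72, 7.39 and 6.70 in Olig1-Cre livers, and 4.24, 4.39, 4.65 and 5.17 in control livers. Its differences from control livers were 3.02 ± 0.26 in Alb-Cre livers (adjusted p = 2.0e-05) and 2.05 ± 0.33 in Olig1-Cre livers (adjusted p = 0.00331), with no overlap of either group with the controls. Only 1 of the 4 controls detected the probe. With no filter on dim probes the gene value takes in further probes that failed the filter, and the differences were then 0.18 (adjusted p = 0.122) and 0.14 (adjusted p = 0.161). Among 3 Cdk kinases and phosphatases, Plk1, a mitotic kinase, was 2.35 higher in Alb-Cre and 1.31 higher in Olig1-Cre livers (adjusted p = 0.000182 and 0.0243). Among 6 genes that act in cyclin and inhibitor degradation, Cdc20, an activator of the anaphase-promoting complex, was 2.5 higher in Alb-Cre and 1.46 higher in Olig1-Cre livers. None of its 4 probes was detected in more than 2 of the 4 controls, so these are differences from values near background. The Ccna2 and Ccnb2 probes gave no signal above background in the same livers.

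Of 5 other Cdk inhibitors, 3 were called higher in each comparison with control livers. Over all genes 19.5% were called higher in Alb-Cre and 12.8% in Olig1-Cre livers. Cdkn1a, the gene of p21 and like Cdkn1b of the Cip/Kip family, read 7.17, 7.47, 8.26 and 7.31 in Alb-Cre livers, 6.73, 5.62, 6.81 and 6.04 in Olig1-Cre livers, and 5.76, 4.53, 5.43 and 4.64 in control livers. Its differences were 2.47 ± 0.31 in Alb-Cre (adjusted p = 0.000230) and 1.21 ± 0.33 in Olig1-Cre livers (adjusted p = 0.0307), the second with overlap. Cdkn2b, the gene of p15 and like Cdkn2c of the Ink4 family, was not above background in any control. It was at least 2.21-fold higher in Alb-Cre and at least 1.55-fold higher in Olig1-Cre livers. The adjusted p values of its fitted differences were 3.0e-05 and 0.0113 by limma, for a probe that passed the filter only through the Cre groups. Cdkn3, a phosphatase that acts on Cdks, was 2.95 and 2.08 higher in Alb-Cre and in Olig1-Cre livers (adjusted p = 1.7e-05 and 0.00739).

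Of 10 genes of the Rb and E2F list, 3 were called higher in each comparison with control livers, against 19.5% and 12.8% of all genes. E2f1, a factor that activates S-phase genes, was 1.54 ± 0.19 higher in Alb-Cre and 1.42 ± 0.20 higher in Olig1-Cre livers (adjusted p = 0.000178 and 0.00201), with no overlap with controls. Rbl1, the Rb relative p107, was 1.19 and 1.05 higher, and E2f3 0.53 and 0.56 higher, in Alb-Cre and in Olig1-Cre livers. With no filter on dim probes the Rbl1 differences were 0.0456 (adjusted p = 0.826) and 0.0424 (adjusted p = 0.838). E2f3 probe ILMN_2743503 averaged 6.62 in Alb-Cre livers, 6.48 in Olig1-Cre livers and 5.53 in control livers, and its other probe, ILMN_1214485, 5.10, 5.30 and 5.13. Tfdp2, a dimer partner of E2F, was called 0.66 lower in Alb-Cre livers (adjusted p = 0.00208), a value of -0.07 when arrays were scaled to 1 median. In the MuvB and Foxm1 list of 4, Foxm1, an activator of G2 and M genes, was 1.47 and 0.82 higher in Alb-Cre and in Olig1-Cre livers, with its 2 probes detected in 2 and in 1 of the 4 controls. Mybl2 was called in Alb-Cre livers (adjusted p = 0.0453), lost in 7 of 8 fits that left out 1 liver (up to 0.108) and kept without Alb-Cre replicate 2. Rbbp4, a histone-binding protein found in many complexes, was 0.81 and 0.63 lower in Alb-Cre and in Olig1-Cre livers, and 0.03 higher in Alb-Cre livers when arrays were scaled to 1 median.

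Of 5 proliferation markers, 4 were called higher in each comparison with control livers, against 19.5% and 12.8% of all genes. They were Mcm2, a part of the replicative helicase, Rrm2, a subunit of ribonucleotide reductase, Aurka, a mitotic kinase, and Top2a, a topoisomerase of dividing cells. Aurka and Top2a passed the filter only through the Cre groups, so the count is a description. Mcm2 was 1.99 ± 0.22 and 1.78 ± 0.25 higher in Alb-Cre and in Olig1-Cre livers. Aurka and Top2a were not above background in any control, and were at least 4.83-fold and 1.91-fold higher in Alb-Cre livers and at least 2.48-fold and 1.47-fold higher in Olig1-Cre livers. Rrm2 was 1.54 and 1.11 higher in Alb-Cre and in Olig1-Cre livers. Neither Mcm2 nor Rrm2 had a probe detected in more than 2 of the 4 controls. Of 10 other cyclins only Ccng1, cyclin G1, known as a p53 target, was called, 1.17 ± 0.13 and 0.85 ± 0.13 higher in Alb-Cre and in Olig1-Cre livers. Of the calls named in Olig1-Cre livers, leaving out 1 liver ended those of E2f3 (6 of 8 fits, adjusted p up to 0.0835), Cdkn1a, Foxm1 and Plk1 (5 of 8 each, up to 0.0900), Rrm2 (4 of 8, up to 0.0780) and Rbbp4 (2 of 8, up to 0.0623). Each of these calls was lost without Olig1-Cre replicate 1, the first 5 also without Olig1-Cre replicate 3 and without control replicate 2. The 15 calls in Olig1-Cre livers became 0 within chip 1, 7 with no filter on dim probes, 6 by the methods' t-test, 5 against the 2 controls of the same line and 10 to 17 on leaving out 1 liver, and the 16 in Alb-Cre livers were 15 to 18 on leaving out 1 liver. Over all genes the Olig1-Cre counts called higher were 16, then 858 of 19057, 768, 493 and 763 to 1801 in the same order. The Alb-Cre count over all genes was 1725 to 2023 on leaving out 1 liver. Cubic spline normalization, run without background correction, gave smaller Alb-Cre differences for the 18 genes plotted by fold change, and for all but Ccng1 by over 1.5 times, such as 1.46 for Cdk1, 1.06 for Cdc20 and 0.53 for Foxm1.

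**Figure D5:**
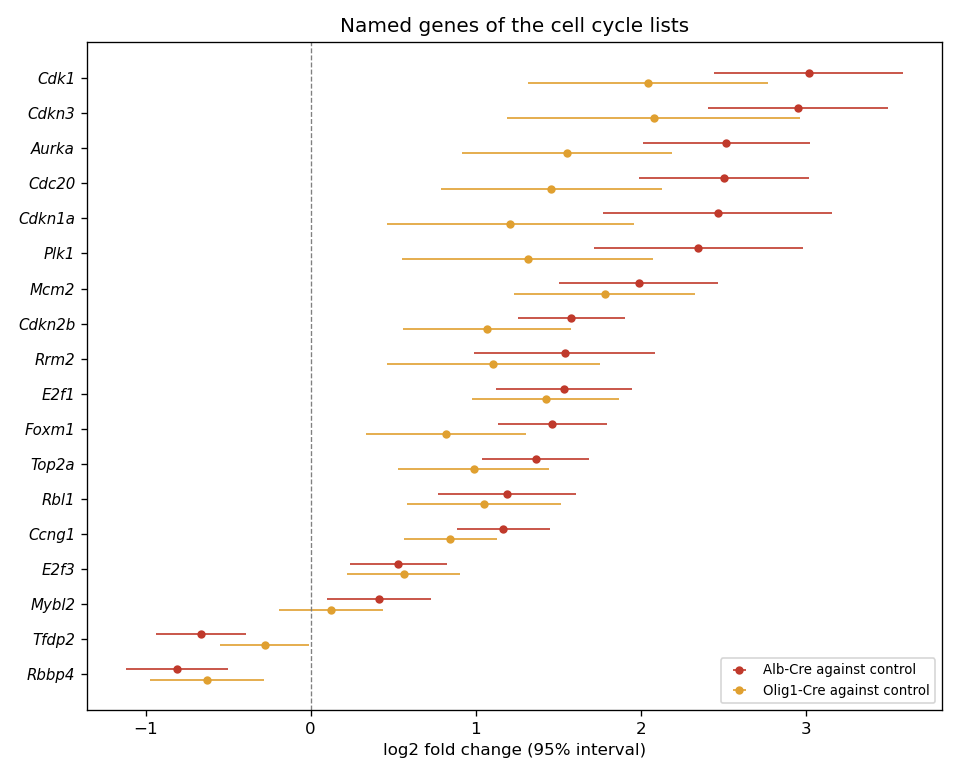
Log2 fold change and 95% interval of 18 named genes of the cell cycle lists, in Alb-Cre and in Olig1-Cre against the same 4 control livers. Cdk1 has the largest Alb-Cre value, 3.02, and Tfdp2 and Rbbp4 are the 2 genes left of 0 in both.

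The genes whose pattern over the 12 livers came closest to each member were found by the root mean square difference of mean-centred log2 values. For Ccnd1, whose SD over the 12 livers was 0.91, these were Synpo (0.38), Dusp6 (0.41) and Fxyd3 (0.41). Synpo encodes an actin-associated protein and Dusp6 a phosphatase of ERK kinases. Synpo read 9.13, 9.20, 9.27 and 8.88 in Alb-Cre livers, 8.93, 7.84, 8.47 and 8.72 in Olig1-Cre livers, and 6.74, 7.41, 7.26 and 8.17 in control livers. Its high control replicate 4 and low males follow from the choice of Synpo as the gene nearest to Ccnd1. For Ccnd2 (SD 0.42) the nearest were Sptssa (0.13), Idh2 (0.14) and Plau (0.17). In Alb-Cre livers Sptssa read 9.01 and 8.91 on chip 1 and 9.95 and 9.83 on chip 2. These pairs by chip likewise follow from its choice as the gene nearest to Ccnd2. For Cdkn2c (SD 0.31) they were Ncdn (0.07), Dlgap4 (0.11) and Gnb5 (0.11). For Ccne2 (SD 0.22) they were Pcyox1 (0.08), Cyp2s1 (0.11) and Hnrnpab (0.11). For the rest, with SDs of 0.19 to 0.30, the nearest genes were Dnajc8, Spc24 and Slc25a5 for Ccnd3, Fibp, Vamp5 and Cd37 for Ccne1, and Snx27, Plekha5 and H3c14 for Cdkn1b, at 0.08 to 0.15. This nearness over 12 livers is a description. Among the members themselves the nearest pair was Ccne2 and Cdkn2c (0.18) and the farthest Ccnd1 and Cdkn1b (1.06). The values were not scaled by SD, so genes that vary little tend to lie close. The Cdkn2c value comes mostly from different probes in Alb-Cre and in control livers, which enters its nearest genes and this pair.

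Some markers of other cell types were also called. In Alb-Cre against control livers 5 of 6 tested macrophage markers, 5 of 9 stellate and fibroblast markers, 3 of 4 bile duct markers and 1 of 5 neutrophil markers were called higher, and 3 of 6 hepatocyte markers lower. None of the 4 lymphocyte and 2 erythroid markers tested was called. Over all genes 19.5% were called higher and 15.3% lower. The summed macrophage signal was 2884 to 3790 in Alb-Cre livers, 2049 to 3907 in Olig1-Cre livers and 1311 to 2059 in control livers, that of bile duct markers 301 to 451, 178 to 257 and 121 to 179, and that of hepatocyte markers 32837 to 38665, 33712 to 43014 and 42728 to 47928 in the same order. In Olig1-Cre against control livers 3 of 5 neutrophil, 2 of 6 macrophage, 2 of 9 stellate and fibroblast and 1 of 4 bile duct markers were called higher. There 1 of 6 hepatocyte markers was called lower, and Cd3e, a T cell marker and 1 of 4 lymphocyte markers tested, was 0.52 higher. Over all genes 12.8% were called higher and 8.47% lower in that comparison. Mbp, 1 of 2 tested oligodendrocyte markers, was 1.33 higher in Alb-Cre and 0.86 higher in Olig1-Cre livers. The other was not called, and the median difference over both was 0.27 and 0.41, below that of Mbp. Among 5 tested endothelial markers Lyve1 was 0.74 and 0.83 higher and Stab2 0.88 and 0.59 lower in Alb-Cre and in Olig1-Cre livers. Markers not above background on any array were Tat and Fgb for hepatocytes, Epcam for bile duct, Itgam and Cd5l for macrophages, Cd8a and Ms4a1 for lymphocytes, Epb42 for erythroid cells, and Olig2, Sox10 and Mog for oligodendrocytes. The part of these cells in the cyclin and inhibitor values was not tested.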

How the data were processed

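Total RNA of 12 mouse livers was labelled and hybridised to Illumina MouseWG-6 v2.0 arrays by the authors. The deposited bead summary table holds, per array and probe, an intensity (AVG signal, not background-corrected as far as its values show) and a detection p-value. The deposited value table holds log2 values per array, which differed from the normalization used here by at most 0.027 over all probes. GenomeStudio and limma 3.22.1 are the tools given in the submitters' notes, while the methods describe cubic spline normalization and gene medians. Here limma 3.58.1 in R 4.3.3 was used. Intensities were normalized with neqc (offset 16, background inferred from the detection p-values), a probe was kept if 4 or more arrays detected it (p-value below 0.05), and the median of the kept probes gave the gene value. Probe symbols came from the platform annotation (34885 probes with 1 symbol, 18 with several, 10378 with none). Groups were compared in pairs of 8 arrays by lmFit and eBayes, two-sided, with Benjamini-Hochberg adjustment over all 10711 genes or 19528 probes and a threshold of 0.05. The test was checked on simulated normal values without differences by chip, sex or line, so that check does not cover these. The number of arrays, 4 per group, limits the precision, and the p-values measure only the spread between these samples, which the labels do not further describe.

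Genes named were the members with all probes, up to 4 called genes per list with the largest difference in Alb-Cre against control, the 3 nearest genes of each member, and defining markers. Members and lists were chosen with earlier results of these data known. Alternatives were other normalizations, filters and probe choices, chip, sex and line of the controls, a fit of all 12 arrays, the methods' t-test and leaving out each liver. The same alternatives for single probes and list genes were chosen after seeing the data.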

Additional observations from a re-analysis of the deposited data

Results flagged for a closer look

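Of 114 groups of 4 values tested for 1 distant sample, 6 held one, where chance alone flags about 1 in 20. Ccnd3 probe ILMN_1246473 was 5.38 in Alb-Cre replicate 3, against 4.93 to 5.0 in the other Alb-Cre livers (gap over range 0.842). The same liver was the highest for Cdkn3 at 8.58, against 7.66 to 7.81 (0.839). Rbbp4 was 6.09 in Alb-Cre replicate 4, against 5.64 to 5.71 (0.837). In control livers Plk1 was 5.27 in replicate 1, against 4.73 to 4.79 (0.881), and Cdc20 was 4.69 in replicate 3, against 4.38 in the others (0.984). The Atg7 probe was 5.70 in control replicate 2, against 4.23 to 4.29 in the other controls (0.955).

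Ccnd3 probe ILMN_2661849, left out of the tests as dim, was above background on 2 arrays of the Cre groups, Alb-Cre replicate 3 and Olig1-Cre replicate 1, and on 0 control arrays.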

How the results depend on the processing

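The 3 members called higher in Alb-Cre against control livers were 5 when arrays were scaled to 1 median, 0 within chip 2 and 2 to 4 on leaving out 1 liver. Over all 10711 genes the counts called higher were 2088, 4854, 928 and 1725 to 2023 in the same order. In that comparison the count of lower members was 0 to 1 on leaving out 1 liver. The 1 was Cdkn1b without control replicate 4, where 1452 of 10711 genes were called lower. In Olig1-Cre against control livers, 2 members were called higher with the stricter detection limit of 0.01 on all arrays of a group (Ccnd2 and Cdkn2c, with 4 members tested), 2 with the brightest probe of a gene (Ccnd2 and Ccnd3), 1 with sex as a covariate (Ccnd2), and 0 to 1 on leaving out 1 liver. Over all genes the counts called higher were 1442 of 9036, then 1469, 1637 and 763 to 1801 of 10711, in the same order. The Ccnd1 call in Alb-Cre livers was also lost under cubic spline normalization (adjusted p = 0.0590), quantiles without background correction (0.0593), no filter on dim probes (0.135) and the methods' t-test (0.127), and Cdkn2c lost its gene-level call within chip 2 (0.39, adjusted p = 0.200). The causes were not tested. No paired analysis was possible because the labels give no replicate numbers, and those used here only name the livers. With chip as a block the member counts were the same, and 2117 genes were called higher and 1706 lower in Alb-Cre against control livers. Among calls of list genes that alternatives ended, the brightest probe ended the Alb-Cre calls of Rbbp4 (-0.50, adjusted p = 0.115) and Tfdp2 (-0.50, 0.124). No filter on dim probes ended the Alb-Cre call of Mybl2 (0.18, adjusted p = 0.262) and the Olig1-Cre call of Top2a (0.38, adjusted p = 0.184). With sex as a covariate, a fit that rests on the 1 male control, the Alb-Cre differences were 0.29 for E2f3 and 0.51 for Mybl2.

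Small differences changed sign. In Alb-Cre against Olig1-Cre livers, Ccnd2 was 0.11 with arrays scaled to 1 median, 0.11 within chip 2, 0.41 with sex as a covariate or in males only, and -0.25 to 0.11 on leaving out 1 liver. Ccnd3 was 0.12 with arrays scaled to 1 median, 0.0013 with the brightest probe, 0.10 with sex as a covariate or in males only, and -0.17 to 0.0164 on leaving out 1 liver. Ccne1 was 0.16 with arrays scaled to 1 median, 0.11 within chip 2, 0.0906 with sex as a covariate or in males only, and -0.15 to 0.0612 on leaving out 1 liver. Cdkn1b was 0.0375 within chip 1 and 0.0536 with sex as a covariate or in males only. Against control livers, Ccnd3 was -0.0018 in Alb-Cre livers with no filter on dim probes, and in Olig1-Cre livers within chip 2 Ccne1 was -0.0034, Cdkn2c -0.0328 and Cdkn1b 0.0379. With arrays scaled to 1 median Rbbp4 was 0.0304 in Alb-Cre livers and Tfdp2 0.17 in Olig1-Cre livers. Among alternative values for the called member probes, 103 stayed on their side of the threshold and 57 lost the call, with 0 changes of sign. Probes near background (Ccne1, Ccne2 and Cdkn1b) limit what differences these arrays could show.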
